A study of Caenorhabditis elegans with 2 samples.

Results

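Y56A3A.7 and F58D12.1 are 2 genes of Caenorhabditis elegans with a strong binding site of the homeobox protein CEH-90 that lay outside the promoter windows set around annotated transcript starts. The site of Y56A3A.7 was inside an intron on chromosome III, and the site of F58D12.1 was in intergenic sequence past the end of that gene on chromosome V. Both genes were chosen by the signal of their peaks, out of 46890 annotated on the nuclear chromosomes, since these peaks were among the strongest of the deposited lists and fell outside promoter windows. The summits described are all those that lay from 3000 bp before to 3000 bp past either gene. They came to 18 of 23796 in the list of replicate 1, 17 of 30000 in that of replicate 2, 16 of 30000 in the pooled list and 2 of 765 in the list the submitters call optimal, which had passed a threshold on the irreproducible discovery rate (IDR).

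Binding was measured by ChIP-seq, the sequencing of DNA recovered with a protein from sheared chromatin, in 1 group of 2 biological replicates, with no second condition. The worms were hermaphrodite L1 larvae of strain OP210, genotype unc-119(ed3) III; wgIs210, in which a transgene expresses CEH-90 with a C-terminal GFP-FLAG tag. They were taken 6 hours after synchronization by bleaching and starvation, their chromatin was sonicated, and an anti-GFP antibody recovered the fusion. Whole animals were used, so a signal is a mixture of all larval cell types, and it reports the tagged transgene product and not the untagged protein. The control used by the submitters was not analysed here. The lists give a signal per peak and no read counts, so depth was unknown. That signal is the authors' own value with no stated scaling, and it serves here for ranking and describing the peaks of 1 list. Ratios between lists are given as a description and are no measure of binding strength.

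Homeobox genes encode transcription factors that contact DNA through a homeodomain, a fold of helices that many members of the family place on short AT-rich sequences with a TAAT core. Cut-like homeobox proteins carry CUT domains, another DNA-binding fold, beside the homeodomain. RefSeq describes Y56A3A.7 as a cut-like homeobox protein and F58D12.1 as an uncharacterized protein. In C. elegans much control sequence lies close upstream of genes, but introns and intergenic stretches can also hold enhancers, and introns of protein-coding genes can house microRNAs.

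The sequence under the strong summit of F58D12.1 is shown first because it holds a run of 12 bases, printed in capitals, that recurs at other strong summits, the Y56A3A.7 site included. The run was noticed after the values were seen. The window covers 50 bp on each side of the summit and was read 5′ to 3′ from the RefSeq WBcel235 genome, the assembly of build ce11, on the minus strand.
F58D12.1, chrV:14055182-14055282, minus strand: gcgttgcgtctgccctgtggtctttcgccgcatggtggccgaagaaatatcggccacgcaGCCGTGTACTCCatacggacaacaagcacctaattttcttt
On the plus strand, the run lay 10 to 21 bp before the F58D12.1 summit.

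The strong site of Y56A3A.7 was a peak from 11946324 to 11946771 on chromosome III, in build ce11, with its summit at 11946557. Its signal was 1061 in replicate 1, 951 in replicate 2 and 2040 in the pooled list, and it ranked 3 in each of these lists. The summits of the replicates lay 2 and 0 bp from the pooled summit. The q-value the authors gave the pooled peak was 0.00105. In the optimal list, which held the 765 strongest pooled peaks with unchanged values, the signal was 19.0 times the list median of 107.

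The strong site of F58D12.1 was a peak from 14055070 to 14055395 on chromosome V with its summit at 14055232 in every list. Its signal was 734 in replicate 1, 633 in replicate 2 and 1363 in the pooled list, at ranks of 9, 11 and 11. The signal was 12.7 times the median of the optimal list, and the authors' q-values equalled those of the Y56A3A.7 site in each list. Of the 16 pooled summits around both genes, these 2 were in the optimal list, where 2.55% of all pooled peaks stand. Since the genes were picked for these peaks, nothing is read from that difference.

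Both replicates placed both sites at similar ranks, 3 and 3 for Y56A3A.7 and 9 and 11 for F58D12.1. Signals of separate lists have no stated common scale, so the ratios here only describe the values. Replicate 1 over replicate 2 was 1.12 at Y56A3A.7 and 1.16 at F58D12.1. The 20 strongest optimal peaks, which include these sites, had a median ratio of 1.12 (quartiles 1.06 to 1.15), and the 717 optimal peaks with a summit in both replicates had 0.886 (quartiles 0.663 to 1.09). Pooled signal was 1.01 and 0.997 times the sum of the replicates at Y56A3A.7 and F58D12.1. Both replicate summits fell within 2 bp of the pooled summit at 48 of those 717 peaks (6.69%) and at 7 of the 20 strongest.

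**Figure D1:**
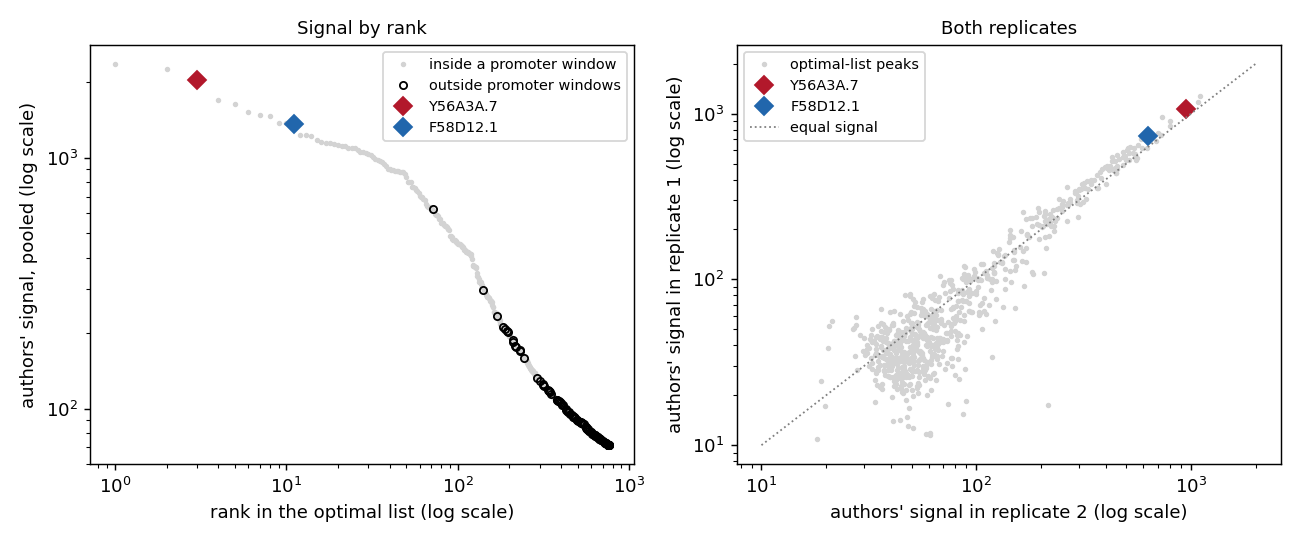
Left, the authors' pooled signal against rank for the 765 optimal peaks, both axes log, with the 102 summits outside promoter windows as open circles and the strong sites as diamonds. Right, signal in replicate 1 against replicate 2 for the 717 peaks found in both, log axes, where Y56A3A.7 and F58D12.1 lie just above the line of equal signal.

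Among summits outside promoter windows, the site of Y56A3A.7 was the strongest and that of F58D12.1 the second in all 4 lists. Promoter windows reached 1000 bp upstream and 200 bp downstream from each transcript start, of any gene class, and 102 of the 765 optimal summits (13.3%) were outside one, against 52.9% of the pooled list. The third had a signal of 622 in the pooled list, 332 in replicate 1 and 289 in replicate 2, so both sites stood above it in each replicate. It ranked 72 in the optimal list and was intergenic on chromosome II, 1633 bp from the start of the microRNA gene mir-72. The next lay in introns of F53F1.3 on chromosome V (signal 298, rank 141) and smg-3 on chromosome IV (233, rank 170), a gene of nonsense-mediated mRNA decay. They were followed by summits in introns of W05H12.1 on chromosome I (211, rank 183) and of the pseudogene WBGene00012975 on chromosome III (207, rank 189). These ranks repeat what the genes were chosen for.

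Y56A3A.7 (WBGene00013228) spans 11933990 to 11947019 on the minus strand of chromosome III, a length of 13030 bp. Ensembl gives it a transcript of 10 exons with 457 codons and another of 12 exons with 570 codons. The strong summit lay in intron 3 of both, a short intron of 247 bp from 11946417 to 11946663. It stood 107 bp from exon 3 and 141 bp from exon 4, so the pooled peak of 448 bp reached over both exon edges. From the annotated starts the summit was 460 and 462 bp downstream. It was thus near the 5′ end of the gene, beyond the window's limit of 200 bp but inside a window that ran 500 bp downstream, which the F58D12.1 site was not. Many C. elegans transcripts are trans-spliced, and their annotated starts can lie downstream of where transcription begins.

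No other gene start was close to the Y56A3A.7 site. The next were those of the microRNA genes mir-8211 and mir-86, 9577 and 9823 bp away and inside Y56A3A.7 on the same strand. Both lie in the last intron of the shorter transcript, while in the longer one mir-8211 overlaps an exon. Past the 3′ end of Y56A3A.7 stood dolk-1, for dolichol kinase, which makes the lipid carrier for protein glycosylation, with a start 12918 bp from the summit. On the other side, top-3, for DNA topoisomerase 3, which untangles DNA strands, overlapped the edge of the span and started 13623 bp away.

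F58D12.1 (WBGene00010249) spans 14049574 to 14054663 on the plus strand of chromosome V, a length of 5090 bp, in 5 exons with 134 codons. Its strong summit lay 569 bp past its 3′ end and 5658 bp from its start. The nearest start of any class, 1523 bp away, belonged to WBGene00014778, a pseudogene on the minus strand inside F58D12.1 that RefSeq names F58D12.2. The summit lay upstream of that start, beyond the window's limit of 1000 bp but inside a window that ran 2000 bp upstream. The nearest protein-coding start was that of F58D12.3, for a SWIB domain-containing protein, 2608 bp downstream on the plus strand. SWIB domains occur in subunits of chromatin remodelling complexes. The start of F58D12.5 (WBGene00050929), for a C2H2-type zinc finger protein, was 5572 bp away, and the pseudogene WBGene00011627 (T08G5.8) lay further upstream in the span.

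Around Y56A3A.7 the strong summit rose out of many weak entries. The span held 15 pooled summits, or 0.788 per kb, where the whole list had 0.299 per kb of the genome. The 14 others had signals of 22.1 to 56.4 with a median of 31.1, near the median of 27.8 over all 30000 pooled peaks, and ranked 1393 to 26155. The strong summit was 36.2 times the best of them in the pooled list, 37.8 times in replicate 1 and 34.1 times in replicate 2. None of the 14 had a q-value under 0.199, and the submitters describe these lists as peaks with background. A summit within 100 bp was found in both replicates for 4 of the 14 (28.6%) and in neither for 2. Over all 29235 pooled peaks below the optimal list, 22.8% had one in both.

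The best of the weak summits lay at 11935394, in the last intron of both transcripts, with a pooled signal of 56.4 at rank 1393. Replicate 1 had 28.0 at 11935444 (rank 1034), while replicate 2 had no summit within 100 bp of it. The entry of replicate 2 at 11935559 (27.9, rank 2740) lay 50 bp from another pooled summit. That one stood at 11935609, with a signal of 40.0 at rank 4406. The second best weak summit, at 11945085 in a coding exon, had 49.7 in the pooled list, 26.2 in replicate 1 and 20.8 in replicate 2. At 11938192, in an intron, the pooled signal was 46.1, and the entry of replicate 2 had 24.6. Replicate 1 had none within 100 bp, and its nearest was at 11938338 (22.1, rank 2151), in a peak that overlapped the pooled one. Every one of these stood well under the optimal list, whose lowest signal was 71.4.

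By place, the 15 pooled summits of Y56A3A.7 fell 10 times in introns, 4 times between genes and once in a coding exon. In replicate 1 the numbers were 11 in introns, 4 between genes and 2 in coding exons, and in replicate 2 they were 10, 4 and 2. Promoter windows held 3 of the pooled summits. One of these, at 11936627 with a signal of 28.8 and rank 13502, was in the window of mir-86. Another, at 11933905 with 27.7, was 266 bp from the start of dolk-1, and the third, at 11947965 with 33.5, was 946 bp from that of Y56A3A.7. None of these 3 was in the optimal list.

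**Figure D2:**
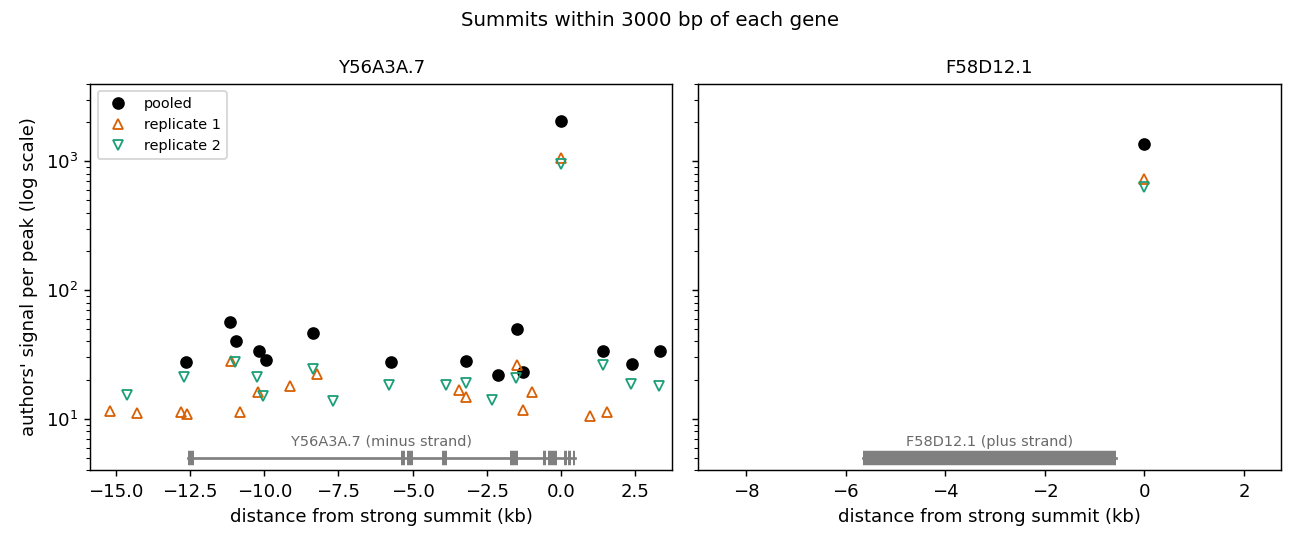
The authors' signal, on a log axis, of every summit within 3000 bp of Y56A3A.7 (left) and F58D12.1 (right) in the pooled and replicate lists, by distance in kb from the strong summit in order of rising coordinate. Grey marks below show the exons of Y56A3A.7 and the whole extent of F58D12.1. The strong summit stands 36.2 times above the best of 14 weaker pooled summits at Y56A3A.7 and alone at F58D12.1.

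Around F58D12.1 the strong summit was the only entry in every list, or 0.0902 pooled summits per kb. The next pooled summits were 16329 bp away on one side and 8804 bp on the other. The nearest was 1268 bp away at Y56A3A.7 and at a median of 922 bp for the optimal list. Of the 765 optimal summits, 757 (98.95%) had a closer neighbour than the F58D12.1 site, and 487 (63.7%) a closer one than the Y56A3A.7 site. At the limit of 3000 bp, the last pooled summits inside were 2875 bp before (signal 33.5) and 85 bp past Y56A3A.7 (27.7), and the first outside were 5042 bp before (23.2) and 3449 bp past it (24.2). For F58D12.1 the first outside were 10671 bp before (22.5) and 9373 bp past the gene (29.0).

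The sequence around F58D12.1 was largely repeated in the genome, while its strong summit was not. Of the 30-base words that start within the gene, 1.19% occurred once in the genome on either strand, against 92.7% for Y56A3A.7 and 91.1% for the whole genome. Over the span of F58D12.1 the share was 16.8%, against 91.7% over that of Y56A3A.7. Every word within 50 bp of either strong summit occurred once. At F58D12.1 this unbroken unique stretch was 290 bp long, from 111 bp before to 178 bp past the summit, and it began inside the peak. Within 3000 bp of the summit, 32.1% of words were unique, which was lower at 1 of the 765 optimal summits and compares with a median of 98.2%. The Y56A3A.7 site had 96.1%.

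A BLAST search with 301 bp around each summit found 101 further matches in the genome for F58D12.1, the longest of 76 bp, and 1 of 43 bp for Y56A3A.7. The lack of other summits around F58D12.1 covered repeated and unique sequence. In bins of 500 bp, no more than 42.2% of words were unique at 500 to 1500 bp past the summit, but 61.0 to 100% were at 2000 to 8500 bp, where the pooled list had no summit either. No source used here gives the read length or the rule for reads that map to several places, and the part of repeats in the lack of summits was not tested.

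**Figure D3:**
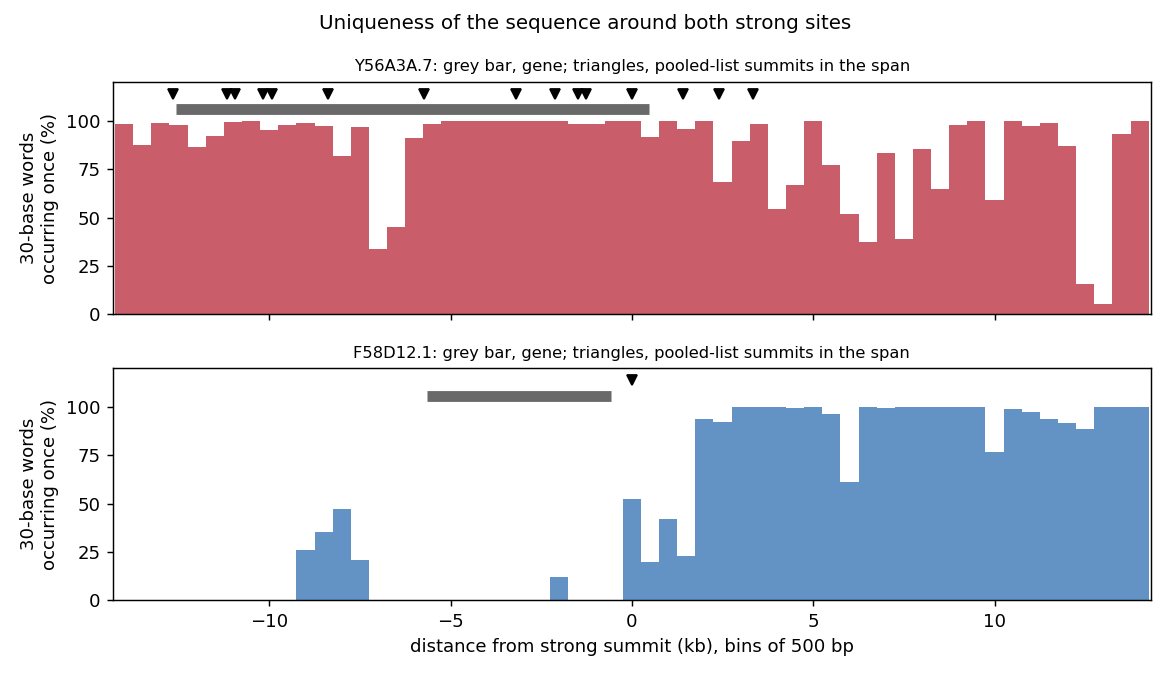
Share of 30-base words that occur once in the genome, in bins of 500 bp, by distance in kb from the strong summit of Y56A3A.7 (top) and F58D12.1 (bottom). Grey bars mark the genes and triangles the pooled summits of each span. Nearly all words of F58D12.1 are repeated (1.19% unique), and its summit stands in a unique stretch of 290 bp. Mostly repeated sequence borders that stretch on either side, but from 2000 bp past the summit most words are unique.

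The run of 12 bases, taken from both strong sites, was rare in the genome and recurred at other strong summits. It occurred 79 times on the nuclear chromosomes, 14 of them on chromosome III, 14 on chromosome V and 0 on the X chromosome. Within 50 bp of the summit it was held by 24 of the 765 optimal peaks (3.14%), by 4 of the other 29235 pooled peaks (0.0137%) and by the stretches 200 to 250 bp beside the optimal summits in 3 cases (0.392%). Among the 20 strongest optimal peaks 7 held it. These counts of optimal peaks include both strong sites, which hold the run by choice. The 24 ranked 2 to 362 with a median rank of 77.5. Of the 79 copies, 49 (62.0%) had no pooled summit within 100 bp and 40 (50.6%) lay in promoter windows.

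Summits outside promoter windows held the run too. Of the 102 optimal summits outside promoter windows, 4 had it (3.92%), close to the share over the whole list. These 4 were among the 5 strongest of the 102, in Y56A3A.7, past F58D12.1, and in introns of F53F1.3 and smg-3. The summit near mir-72 did not have it. The run was chosen because both strong sites share it, so its presence there is no result, and no test was made.

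The last 9 bases of the run, GTGTACTCC, were commoner, with 1456 copies in the genome. They were held by 62 optimal peaks (8.10%), 12 of the 20 strongest and 46 of the other pooled peaks (0.157%).

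The span of Y56A3A.7 showed that these 9 bases also occur without a strong peak. Beside the copy at the strong summit, intron 5, of 862 bp, held 3 copies on the same strand, 1282, 1026 and 724 bp from the summit towards the 3′ end of the gene. The nearest pooled summit was the same for all 3, at 14, 242 and 544 bp from them, and had a signal of 23.3 at rank 23358. In replicate 1 a summit with a signal of 16.1 (rank 6866) lay 43 bp from the middle copy. Replicate 2 had none nearer to that copy than 481 bp. The span of F58D12.1 held 1 copy, at the strong summit.

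The window of F58D12.1 also held an inverted repeat, whose arms are in capitals in this plus-strand sequence.
F58D12.1, chrV:14055226-14055248, plus strand: GTGGCCGAtatttctTCGGCCAC
The arms were 8 bases with a spacer of 7, centred 5 bp past the summit. Inverted repeats with arms of at least 8 bases and a spacer of at most 20 were found within 50 bp of 83 optimal summits (10.8%), in 81 of the stretches of equal length beside them (10.6%) and at 2 of the 20 strongest peaks.

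Of the short words that led the optimal list in earlier work on these data, Y56A3A.7 held none and F58D12.1 held GGCCAC and CGGCCA. Each of these words was also absent from most optimal summits. Counted on both strands within 50 bp of the summit, GGCCAC had 0 copies at Y56A3A.7 and 2 at F58D12.1, with 19.1% of optimal and 2.06% of other pooled summits holding it. CGGCCA, which overlaps it by 5 bases, likewise had 0 and 2 copies (17.5% and 2.04%), and at F58D12.1 both words stand in the arms of the inverted repeat. GGCCTA (18.8% and 2.18%), CTAGGC (17.6% and 1.94%) and ACGCGC (14.0% and 1.81%) were at neither site. Nor were ATCGAT and ATTGAT, words known from ONECUT proteins. ATCGAT was held by 4.18% of optimal and 3.78% of other pooled summits, and ATTGAT by 7.19% and 9.95%. The homeodomain core TAAT had 2 copies at Y56A3A.7 and 1 at F58D12.1, and was found at 50.5% of optimal and 67.6% of other pooled summits.

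Within 50 bp of both summits, G and C were more frequent than in the stretches set beside them, but at Y56A3A.7 this turned round with a wider window. Within 50 bp the GC content was 49.5% at Y56A3A.7 and 54.5% at F58D12.1, against 37.3% and 39.2% in the stretches 200 to 250 bp away. Within 100 bp it was 33.8% at Y56A3A.7, below those stretches, and 40.8% at F58D12.1. Towards lower coordinates, Y56A3A.7 also had GC-rich sequence 400 to 240 bp from its summit, at 47.6 to 85.7% in bins of 21 bp. That sequence lies in exon 4, as does the stretch 200 to 250 bp away on the same side. F58D12.1 had 57.1 to 76.2% in bins 120 to 160 bp past its summit. The optimal list had a median of 44.6% at the summit (quartiles 37.6 to 49.5%) and 34.3% in the stretches 200 to 250 bp away. Its 102 summits outside promoter windows had a median of 40.1%. GC content was lower than at Y56A3A.7 in 71.1% of the optimal list and lower than at F58D12.1 in 89.5%.

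**Figure D4:**
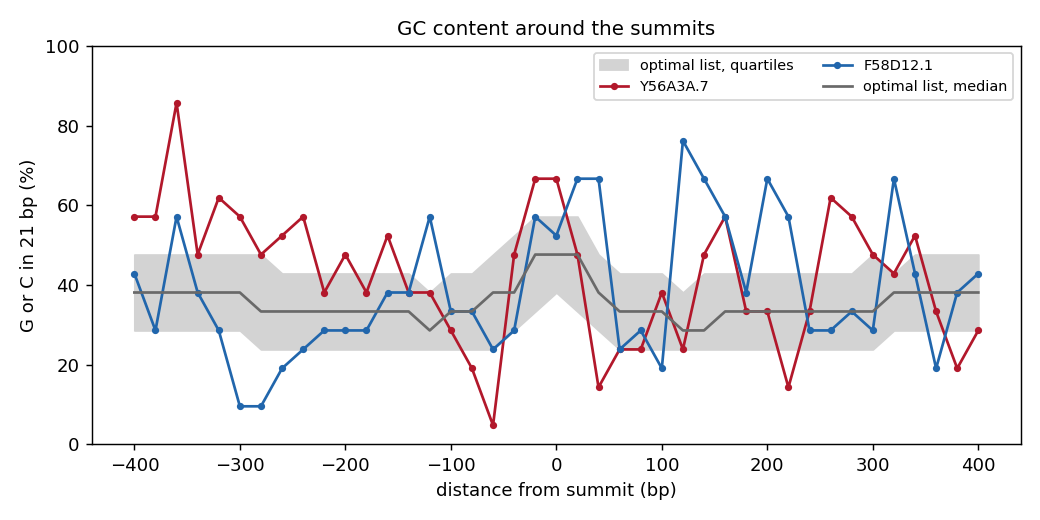
GC content in bins of 21 bp by distance in bp from the summit, for Y56A3A.7, F58D12.1 and the optimal list (median line and quartile band). Y56A3A.7 and F58D12.1 have 49.5% and 54.5% within 50 bp, where the list median also peaks. Y56A3A.7 has bins of up to 85.7% more than 200 bp from its summit towards lower coordinates. F58D12.1 has a bin of 76.2% at 120 bp past its summit.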

How the data were processed

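The deposited files are narrowPeak lists of 2 ChIP-seq replicates in builds ce10 and ce11. Per the labels of the deposited files, each list came from alignments of 1 or both replicates and a control. The aligner, peak caller, IDR threshold and versions were not given in the sources used here. Column 7, the authors' signal per peak, and their q-value, deposited as −log10, were read as given. Read depth was unknown, so no counting error could be given. Both members and all word lists were chosen with earlier results of these data known. With 1 group, no test was made.

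Gene models were Ensembl release 115 and sequence RefSeq, both WBcel235, whose chromosome lengths fit ce11. Gene names are Ensembl's (microRNA genes without the species prefix), and descriptions and names of pseudogenes came from RefSeq by gene ID. Coordinates are 1-based. Summits within 100 bp counted as shared. The sequence at the Y56A3A.7 summit is not reported here. The shared run, its last 9 bases, the inverted repeats, word uniqueness and the BLAST search (BLAST 2.17.0, E-value at most 1e-05) were chosen after the values were seen. Genes named were both members, all genes in their spans, those with the nearest start on each side of the strong summits, and those at the 5 strongest other optimal summits outside promoter windows. Alternatives were the flank, window, gene classes, list, build and sharing distance. Python 3.11.15 with pandas 2.3.3 and NumPy 2.4.6 was used, and the search steps were tested on simulated data.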

Additional observations from a re-analysis of the deposited data

How the results depend on the processing

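Both strong sites kept their order, and the Y56A3A.7 site ranked 3 in every list tried. Leaving out 1 replicate gave ranks from 9 to 11 for F58D12.1. The number of optimal summits outside promoter windows was 160 with 500 bp upstream, 63 with 2000 bp upstream and 155 with protein-coding starts only, against the 102 reported. It was 90 with 500 bp downstream, a setting chosen after seeing the data, and the Y56A3A.7 summit was then no longer among them. With 2000 bp upstream the F58D12.1 summit dropped out, since it lay 1523 bp upstream of a pseudogene start. With protein-coding starts only, the nearest start to the F58D12.1 summit was 2608 bp away. Within 100 bp of the summit, GC content was 33.8% at Y56A3A.7, under the 37.3% of the stretches beside it, and 40.8% at F58D12.1, and 2 of the 8 words matched at Y56A3A.7 in place of 1. Numbers of summits around the genes, shared replicate summits and the ce10 ranks were the same or nearly so. Lists with no read counts limit what depth can show. No paired analysis was possible because the series holds 1 group.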
